A study of Ovis aries with 16 samples.

Results

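Ribosomal protein genes were read on this array by 33 of its 15008 probes, which name 20 genes. A probe was taken as a member when its gene name began with RPL, RPS, RPLP, MRPL or MRPS and a digit, or when its description held the words ribosomal protein, with ribosomal protein kinases left out. The gene name alone chose 5 probes, the description alone 17, and both 11. The members comprised 19 genes of the cytosolic ribosome on 32 probes, 8 of the large subunit and 11 of the small, and 1 gene of the mitochondrial ribosome, MRPL32, on 1 probe. Of the 33 probes, 30 lay well above background on all 16 arrays and were tested, and these covered all 20 genes. The other three were well above background on at most 2 arrays, and each reads a gene that a brighter probe covers.

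The study asked how angiotensin II regulates gene expression in the heart of the late gestation sheep fetus. In 8 twin pregnancies, 1 fetus of each pair was infused through femoral catheters for 5 days and the other twin was left untreated. In twin sets 1 to 4 the infused fetus received losartan, a blocker of the angiotensin type 1 receptor, and in sets 5 to 8 it received angiotensin II. Catheters were placed at 125 to 126 days of gestation, where term is 145 days, and RNA of integrity number 7.5 to 10 from the left ventricle was labelled with Cy5 and hybridised to 1 array per fetus. The 4 groups of 4 arrays are therefore losartan, its untreated twins, angiotensin II and its untreated twins. All fetuses were twins of one species, with no strain or genotype named, and no sham infusion is named for the untreated twins. The labels call the infusion daily in one field and continuous in another, and the tissue free wall in one field and free wall with septum in another. The cardiomyocyte markers MYH7, MB and TPM1 were well above background on all 16 arrays. In whole tissue, fewer cells of a type and less RNA per cell cannot be told apart.

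The cytosolic ribosome makes the proteins of the cytoplasm, and its large subunit joins amino acids while its small subunit reads the messenger RNA. Its proteins are needed in nearly equal number, their genes are expressed in every cell, and many of their messenger RNAs begin with a pyrimidine tract through which the mTOR pathway controls their translation without a change in their amount. Mitochondria hold a ribosome of their own, whose proteins are made in the cytosol from nuclear genes and which makes a few subunits of the respiratory chain. In the late gestation heart, cardiomyocytes pass from dividing to enlarging, and both need protein synthesis.

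The probes were 60 bases long, with a GC content of 35.0% to 45.0% and a median of 43.3%, which was also the median of all 15008 probes. The probe sequences, as the deposited arrays give them from 5′ to 3′, show which measurements were repeated readings of nearly the same bases. The 3 RPL10 probes share the 42 bases in capitals, the first and second being shifted by 1 base and the third by 17 or 18 bases:

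RPL10, the first: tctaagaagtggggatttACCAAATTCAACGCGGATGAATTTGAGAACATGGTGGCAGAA

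RPL10, the second: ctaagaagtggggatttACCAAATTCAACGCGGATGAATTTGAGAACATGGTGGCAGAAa

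RPL10, the third: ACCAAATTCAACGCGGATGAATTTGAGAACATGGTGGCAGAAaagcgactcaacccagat

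The RPS26 probes are a pair shifted by 1 base, with the 59 shared bases in capitals, and RPL14 and RPS27A each have such a pair too:

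RPS26, the first: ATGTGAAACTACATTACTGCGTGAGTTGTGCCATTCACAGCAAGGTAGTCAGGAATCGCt

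RPS26, the second: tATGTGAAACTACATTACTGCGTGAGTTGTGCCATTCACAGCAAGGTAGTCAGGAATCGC

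An RPL4 probe has a counterpart on the opposite strand that the array names only by its probe number, and capitals mark the 59 bases that are reverse complements of each other:

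RPL4 probe: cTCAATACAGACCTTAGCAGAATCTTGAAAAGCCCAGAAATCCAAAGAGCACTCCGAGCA

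RPL4 opposite strand: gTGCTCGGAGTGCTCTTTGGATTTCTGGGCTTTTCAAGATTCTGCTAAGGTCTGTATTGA

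The RPL35A probe shares 29 bases in a row, in capitals, with a probe of an unnamed transcript. Most of the unnamed probe's bases before the capitals match RPL35A too, so that the probes are overlapping readings:

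RPL35A: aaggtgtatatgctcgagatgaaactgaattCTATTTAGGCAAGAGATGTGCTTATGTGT

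Unnamed probe: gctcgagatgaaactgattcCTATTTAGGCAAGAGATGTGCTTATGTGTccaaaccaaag

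RPL13A, RPS6 and RPS23 were each read by 1 probe that shared no run of 16 or more bases with another member, and the values described below turn on them. For RPS23 only the first 30 bases are shown:

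RPL13A: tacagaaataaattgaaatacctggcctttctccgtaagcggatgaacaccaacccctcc

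RPS6: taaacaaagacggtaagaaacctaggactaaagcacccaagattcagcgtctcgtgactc

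RPS23: cctcacccaaggaaaactgtctttctagag

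No genome position is given for these probes, because the deposited arrays name no build and list them as unmapped.

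Levels below are log2 of the processed signal minus the array's 75th percentile, so that 0 is the level of a probe brighter than 75% of the probes, and they are compared between fetuses for 1 probe at a time. The 75th percentile lay between 1124 and 1709 signal units over the 16 arrays. Between 57.3% and 64.1% of probes were well above background per array. The 16 arrays lay on 2 slides, and 3 arrays of the second slide stood apart: the untreated twin of set 2 and the angiotensin II fetuses of sets 7 and 8. On those 3 arrays the corner control spots read 17.2 to 17.7 on the log2 scale, against 14.4 to 15.4 on the other 13. Estimates without sets 2, 7 and 8 keep 3 losartan pairs and 2 angiotensin II pairs. They are given below beside the results of ribosomal protein genes described singly where they differ.

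In the 8 untreated fetuses the typical spread of the ribosomal protein genes was close to that of all probes. The median SD over the 19 cytosolic genes was 0.19, against 0.22 over the 8966 probes tested. The cytosolic probes are brighter than most, with 13 of 29 at a level of 6 or more against 104 of all 8966. Spread was not compared at matched signal. RPS6, the small subunit protein that S6 kinase phosphorylates, had the smallest SD, 0.14, with a lowest level of 6.22, a median of 6.32 and a highest level of 6.64. RPL27A ranged from 6.43 through a median of 6.59 to 6.86 (SD 0.15, n = 8). RPS15A ranged from 4.38 through a median of 4.59 to 4.80 (SD 0.15, n = 8). All 3 genes lay within a range of under 0.5 over the untreated fetuses.

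RPS23, RPL13A and RPS26 had the largest spread in the untreated fetuses. RPS23, a protein of the decoding centre, ranged from 0.90 through a median of 1.15 to 2.78 (SD 0.84, n = 8). RPL13A, a large subunit protein with reported functions off the ribosome, ranged from 2.70 through a median of 2.80 to 4.36 (SD 0.56, n = 8). RPS26, which lies at the messenger RNA exit, ranged from 3.39 through a median of 3.63 to 4.94 (SD 0.51, n = 8). For RPL13A and RPS26 the highest value was the array of set 2 that stood apart, and the other 7 untreated fetuses lay at 2.70 to 3.04 and 3.39 to 3.91. For RPS23 the high values were those of 3 fetuses, of sets 1, 2 and 6. MRPL32, a protein of the large subunit of the mitochondrial ribosome, ranged from -0.44 through a median of -0.05 to 0.08 (SD 0.18, n = 8).

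The untreated twins of the losartan sets and of the angiotensin II sets were compared first, as a check of the 2 control groups against each other. No ribosomal protein probe passed an adjusted p of 0.05 in limma, nor did any of the 8966 probes tested (0% called), and at an unadjusted p under 0.05 the count of member probes was 0 of 30, where 3.32% of all probes lay below it. The median difference over the cytosolic genes was 0.03, with a range from -0.11 to 0.37 and 13 of 19 genes above 0 (49.5% of all probes), against a median of 0.00 over all probes.

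Losartan left no ribosomal protein gene past the threshold. Within the pairs, 0 of 30 member probes passed an adjusted p of 0.05 in limma where 109 of 8966 probes did (1.22%), 20 higher and 89 lower. At an unadjusted p under 0.05 the count was 0 of 30, where 12.3% of all probes lay below it. The median change over the 19 cytosolic genes was 0.02 on the log2 scale, with 10 above 0 and 9 below (51.7% of all probes were above 0), against a median of 0.01 over all probes. It was -0.01 over the 8 large subunit genes and 0.02 over the 11 small subunit genes. By pair, the median over the cytosolic genes was -0.13 in set 1, -0.05 in set 2, 0.08 in set 3 and 0.17 in set 4, with 4, 9, 13 and 16 of the 19 genes above 0. The median without sets 2, 7 and 8 was 0.03, with 13 of 19 above 0. The pairs thus lay on both sides of 0, and their spread (SD 0.13, n = 4) exceeded the median change.

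Among large subunit genes under losartan, RPL13A and RPL35A were on the lower side and RPL10 and RPL11 on the higher side, all within their error. RPL13A read 2.83, 4.36, 2.79 and 2.75 in the untreated twins of sets 1 to 4 and 2.80, 2.98, 2.92 and 2.71 in the losartan twins. Only the pair of set 2 differed by more than 0.13, and the estimate over the 4 pairs was -0.33 (95% interval -1.0 to 0.35, limma adjusted p = 0.70). Without sets 2, 7 and 8 it was 0.02 (SE 0.11). RPL11, which binds the p53 regulator MDM2 when ribosome assembly fails, changed by -0.21, 0.36, 0.03 and 0.26 in the pairs (estimate 0.11, 95% interval -0.14 to 0.36, limma adjusted p = 0.73), and without those sets it gave 0.03 (SE 0.12). The third RPL10 probe gave an estimate of 0.11 (95% interval -0.16 to 0.38), or 0.20 (SE 0.10) without those sets, while the first and second gave -0.11 and -0.09 over the 4 pairs. RPL27A gave -0.08 and RPL35A, a protein mutated in Diamond-Blackfan anaemia, -0.09, each with an interval that holds 0, and without those sets they gave -0.05 and 0.06.

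Among small subunit genes under losartan, RPS15 had the largest estimate upward and RPS26 downward. RPS15, whose tail reaches the decoding site, read -2.31, -2.49, -2.18 and -2.31 in the untreated twins and -2.15, -1.96, -2.02 and -2.41 in the losartan twins. It was higher in 3 of 4 pairs, and the estimate was 0.19 (95% interval -0.12 to 0.50, limma adjusted p = 0.62), or 0.07 (SE 0.13) without sets 2, 7 and 8. RPS26 changed by -0.19, -1.28, 0.12 and 0.16 in the pairs, with an estimate of -0.30 (95% interval -0.88 to 0.28, limma adjusted p = 0.69). The large negative pair was again set 2, and without sets 2, 7 and 8 the estimate was 0.03 (SE 0.12). RPS6 gave 0.09 (SE 0.10), RPS12 0.08 (SE 0.11) and RPS20 -0.06 (SE 0.14). These 3 estimates were no larger than their standard errors, and without sets 2, 7 and 8 they were 0.04, 0.10 and 0.03. Of the other cytosolic genes, RPL4, RPL6, RPL14, RPS15A, RPS23, RPS25 and RPS27A gave estimates from -0.11 to 0.08.

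Angiotensin II likewise left no ribosomal protein gene past the threshold. In limma 0 of 30 member probes had an adjusted p under 0.05, as did 0 of all 8966 probes (0% called), and 1 member probe, that of RPS6, had an unadjusted p under 0.05 where 935 of all probes did (10.4%). The median change over the 19 cytosolic genes was 0.03, with 11 above 0 and 8 below (47.1% of all probes were above 0), against -0.02 over all probes. It was 0.09 over the large subunit genes and 0.00 over the small subunit genes. By pair, the median was -0.06 in set 5, -0.18 in set 6, 0.26 in set 7 and 0.13 in set 8, with 6, 3, 12 and 13 of the 19 genes above 0. The positive pairs were those with an array that stood apart, and without sets 2, 7 and 8 the median over the cytosolic genes was -0.13, with 3 of 19 above 0 and a smallest adjusted p of 0.90.

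**Figure D1:**
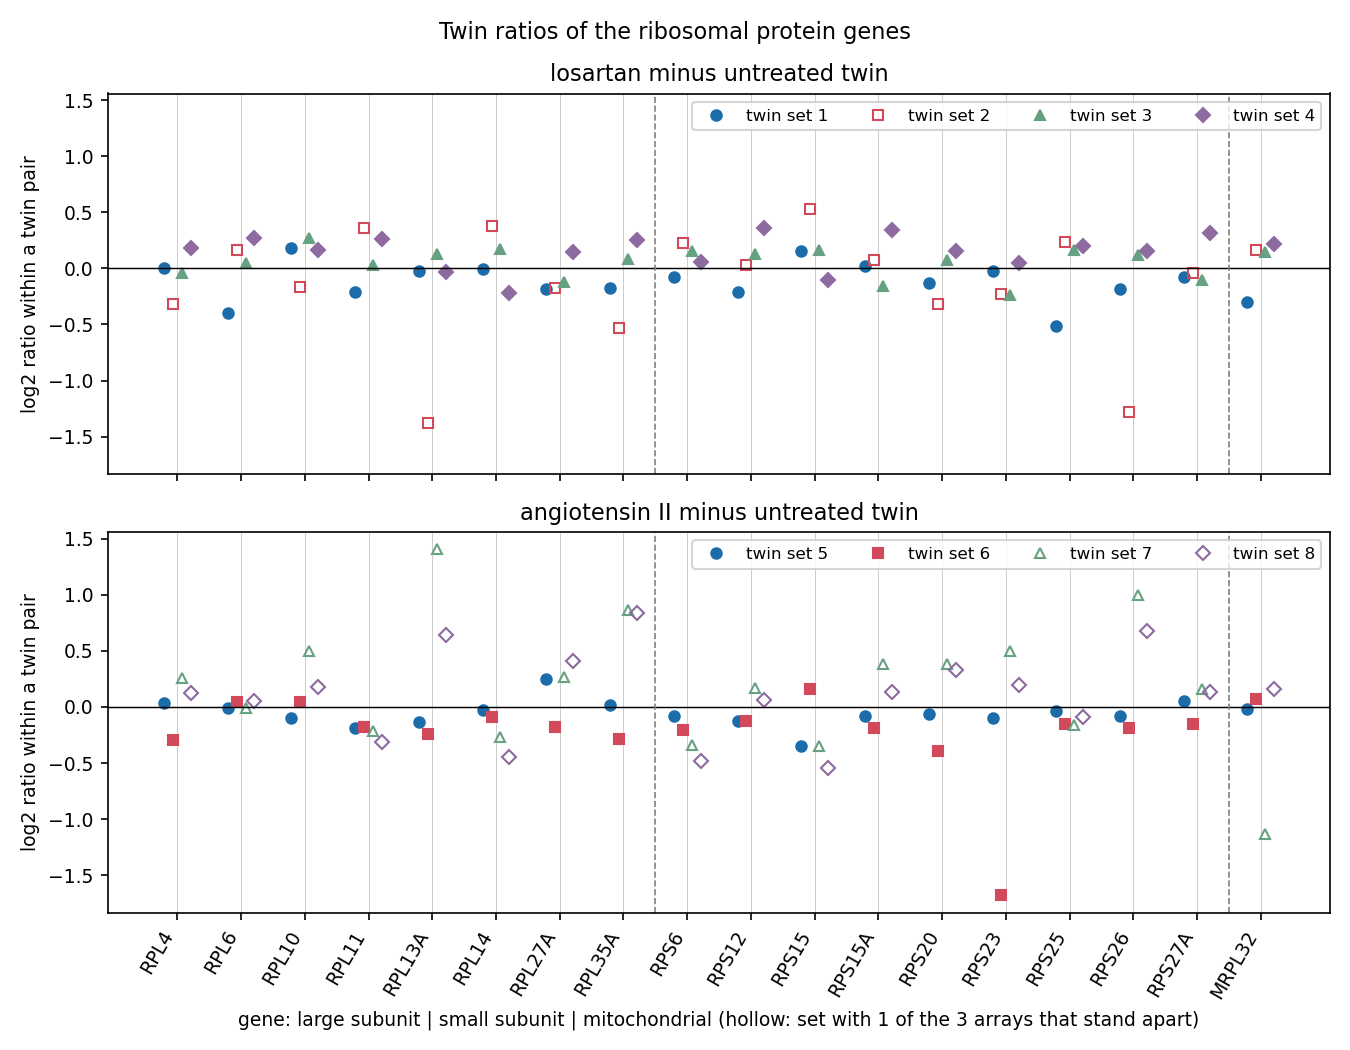
Log2 ratio of the treated fetus to its untreated twin for 1 probe of each ribosomal protein gene shown (horizontal axis) in each twin set, for losartan (upper panel) and angiotensin II (lower panel); hollow points are the sets with an array that stood apart. RPL13A and RPS26 lie at -1.38 and -1.28 in set 2 and at 1.40 and 1.00 in set 7, RPS23 lies at -1.68 in set 6, and the solid points of most genes lie near 0.

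Among large subunit genes under angiotensin II, RPL13A, RPL35A, RPL27A and RPL10 had positive estimates and RPL11 and RPL14 negative ones. RPL13A read 2.80, 2.81, 2.70 and 3.04 in the untreated twins of sets 5 to 8 and 2.67, 2.57, 4.10 and 3.68 in the angiotensin II twins. The high values were both on arrays that stood apart, and the other pairs were lower in the treated twin. The estimate was 0.42 (95% interval -0.25 to 1.09, limma adjusted p = 0.57), and without sets 2, 7 and 8 it was -0.18 (SE 0.13). RPL35A changed by 0.02, -0.29, 0.87 and 0.84 in the pairs (estimate 0.36, 95% interval -0.10 to 0.82, limma adjusted p = 0.51), and its estimate without those sets was -0.13 (SE 0.16). RPL27A gave 0.19 (SE 0.12) and the third RPL10 probe 0.16 (SE 0.12), and without those sets they gave 0.04 (SE 0.16) and -0.02 (SE 0.13).

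RPL11 was lower than its twin in all 4 pairs, by -0.19, -0.18, -0.21 and -0.32, with an estimate of -0.22 (95% interval -0.47 to 0.02, limma adjusted p = 0.49). RPL14 changed by -0.03, -0.09, -0.27 and -0.44 (estimate -0.21, 95% interval -0.48 to 0.06, limma adjusted p = 0.52), and its other probe gave -0.21 as well. Both genes were lower in every pair, yet neither passed the test. Without sets 2, 7 and 8 RPL11 gave -0.18 (SE 0.15) and RPL14 -0.06 (SE 0.14), so that the larger RPL14 ratios were those of the pairs with an array that stood apart.

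Among small subunit genes under angiotensin II, RPS6 had the smallest unadjusted p of all members. It read 6.34, 6.29, 6.32 and 6.64 in the untreated twins and 6.26, 6.08, 5.99 and 6.16 in the angiotensin II twins. The change was -0.08, -0.21, -0.34 and -0.49 in the pairs. The estimate was -0.28 (95% interval -0.51 to -0.05, limma unadjusted p = 0.023, adjusted p = 0.47). Without sets 2, 7 and 8 it was -0.14 (SE 0.13). RPS15 changed by -0.35, 0.16, -0.35 and -0.54 (estimate -0.27, 95% interval -0.58 to 0.04, limma adjusted p = 0.50), and without those sets it gave -0.09 (SE 0.16). RPS26 changed by -0.08, -0.19, 1.00 and 0.68 (estimate 0.35, 95% interval -0.23 to 0.94, limma adjusted p = 0.58), and without those sets it gave -0.13 (SE 0.14). RPS25 has a pair of bright probes, of which the brighter was lower in all 4 pairs with an estimate of -0.11 (SE 0.13). The other RPS25 probe changed by -0.12, -0.18, 0.15 and 0.05, with an estimate of -0.03 (SE 0.11). Of the other cytosolic genes, RPL4, RPL6, RPS12, RPS15A, RPS20 and RPS27A gave estimates from 0.00 to 0.07, or from -0.23 to 0.02 without those sets, and RPS23 is described below.

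In all, 5 of 30 member probes were lower than their twin in all 4 angiotensin II pairs, where 10.0% of all probes tested were, and 0 were higher in all 4, where 8.18% of all probes were. The 5 read RPL11, RPL14 (both probes), RPS6 and RPS25, for which the other bright probe was lower in 2 pairs and higher in 2. Under losartan 0 of 30 were lower in all 4 pairs (11.2% of all probes) and 0 were higher in all 4 (10.6% of all probes).

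The change under angiotensin II was then set against the change under losartan. In limma 0 of 30 member probes passed an adjusted p of 0.05, where 147 of 8966 probes did (1.64%), and 2 member probes had an unadjusted p under 0.05, both lower, where 1856 of all probes did (20.7%). The 2 were RPS6, with a difference of -0.37 (95% interval -0.69 to -0.04, limma adjusted p = 0.20), and RPS15, with a difference of -0.46 (95% interval -0.89 to -0.02, limma adjusted p = 0.23). Both went lower under angiotensin II than under losartan in these estimates, and RPL11 (-0.33, SE 0.16), RPL14 (-0.29, SE 0.17) and RPS25 (-0.13, SE 0.19) followed in the same direction. These differences were smaller without sets 2, 7 and 8, at -0.19 for RPS6, -0.17 for RPS15, -0.21 for RPL11, -0.04 for RPL14 and -0.04 for RPS25. RPL13A (0.75, SE 0.43), RPS26 (0.65, SE 0.37), RPL35A (0.45, SE 0.29) and RPL27A (0.27, SE 0.17) were among those with the smallest p in the other direction. Without those sets the differences of RPL13A, RPS26 and RPL35A turned to -0.21, -0.16 and -0.19, and that of RPL27A was 0.09. Over the 19 cytosolic genes the median difference was 0.00, with 11 above 0 (47.7% of all probes), against -0.02 over all probes. With sets 2, 7 and 8 left out it was -0.19, with 3 of 19 above 0 and a smallest adjusted p among these genes of 0.47 in limma.

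In the authors' deposited value table, put on the log2 scale, 4 member probes passed in this comparison where 19.3% of all 8966 probes did. They were RPS6 (-0.60, limma adjusted p = 0.034), the second RPL14 probe (-0.63, limma adjusted p = 0.033), RPS15 (-0.65, limma adjusted p = 0.047) and RPL11 (-0.45, limma adjusted p = 0.050). The share of member probes that passed there, 4 of 30, was below the share of all probes.

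**Figure D2:**
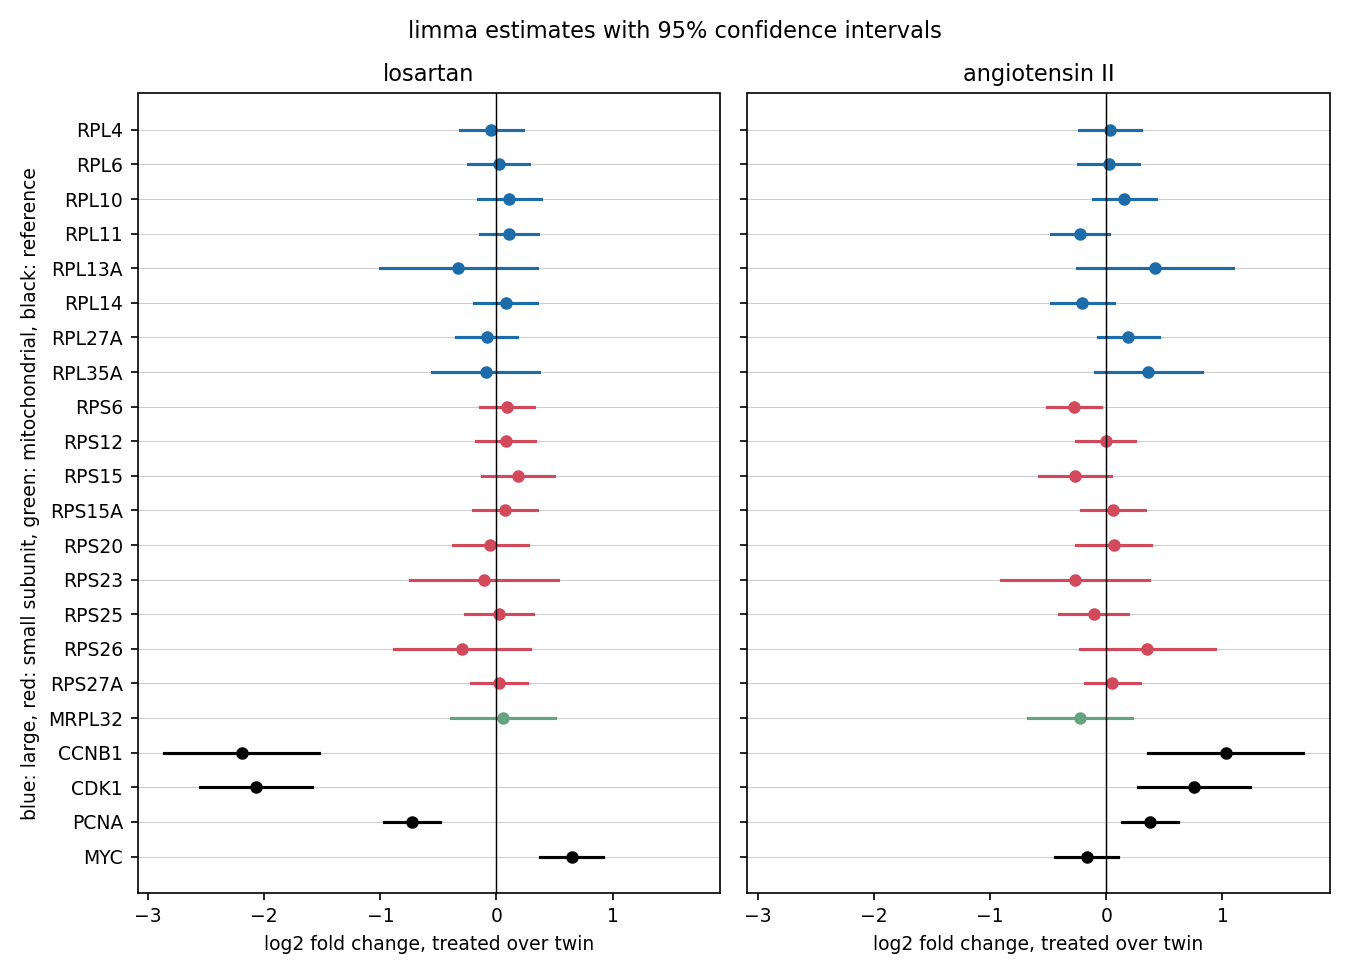
Estimated log2 change with its 95% confidence interval (horizontal axis) for the ribosomal protein genes shown and, in black, for the reference genes CCNB1, CDK1, PCNA and MYC, under losartan (left panel) and angiotensin II (right panel), each from 4 twin pairs. Every ribosomal protein interval plotted holds 0 except that of RPS6 under angiotensin II (-0.51 to -0.05), while the losartan intervals of all 4 reference genes lie off 0.

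The proliferation change was visible on the same arrays. Under losartan 5 of the 9 cell cycle genes tested passed lower and 0 passed higher. Of all 8966 probes 109 passed (1.22%), 89 of them lower. CCND3 alone of the 9 had an estimate above 0 (0.24, SE 0.13). Among the 5 were CCNB1, which drives entry into mitosis (-2.19, SE 0.30, limma adjusted p = 0.0083), its kinase CDK1 (-2.07, SE 0.22, limma adjusted p = 0.0023) and PCNA, the clamp of DNA polymerase (-0.73, SE 0.11, limma adjusted p = 0.013). CDK1 was well above background in 2 of the 4 losartan fetuses and in all 4 untreated twins. CCNA2 and ASPM, also among the 5, were so in 1 and 0 losartan fetuses and in all 4 untreated twins. ASPM was tested only because it passed the filter in that untreated group, where it was high, so its fall is limited by the background. MYC, a transcription factor that drives ribosome production in many cells, rose by 0.65 (SE 0.12, limma adjusted p = 0.034) and was higher in 4 of 4 pairs. Under angiotensin II none of the 4 passed: CCNB1 gave 1.03, CDK1 0.76, PCNA 0.38 and MYC -0.17, with limma adjusted p of 0.46, 0.45, 0.46 and 0.57. CCNB1, CDK1 and PCNA were higher in all 4 angiotensin II pairs, as were 8.18% of all probes. Their limma unadjusted p was 0.0065, 0.0060 and 0.0063, where 10.4% of all probes lay under 0.05. In the difference between the treatments 4 of the 9 cell cycle genes passed, all higher under angiotensin II, where 1.64% of all probes passed.

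The 95% interval of the losartan change lay wholly within 0.5 of 0 for 14 of the 19 cytosolic ribosomal protein genes, and it excluded a fall as large as that of PCNA for 16, the exceptions being RPL13A, RPS23 and RPS26. Under angiotensin II the interval lay within 0.5 of 0 for 12 of the 19.

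The other genes of the translation machinery that the array could be matched to are few. Of listed initiation factors, 4 were tested (EIF1AX, EIF3A, EIF4A2 and PABPC1) and 0 passed in either direction under either treatment. For this list and the next ones, 1.22% of all probes passed under losartan and 0 of 8966 under angiotensin II. A count of 0 in so short a list therefore does not show that its genes were unchanged. EIF3A, a scaffold of the initiation complex, had the largest estimates, -0.38 (SE 0.21) under losartan and 0.62 (SE 0.21) under angiotensin II. Its pair ratios were -0.51, -0.87, 0.28 and -0.40 in sets 1 to 4 and 0.41, 0.15, 0.60 and 1.32 in sets 5 to 8. Under angiotensin II its limma unadjusted p was 0.015, where 10.4% of all probes lay under 0.05. The difference between the treatments was 1.00 (SE 0.30, limma adjusted p = 0.13). Of elongation factors, 3 were tested (EEF1A1, EEF1D and EEF1E1) and 0 passed. EEF1A1, which brings the aminoacyl transfer RNA to the ribosome, gave 0.25 (SE 0.13) under losartan and -0.23 (SE 0.13) under angiotensin II. Its pair ratios were 0.16, 0.54, 0.21 and 0.10 in sets 1 to 4 and 0.16, -0.19, -0.41 and -0.49 in sets 5 to 8. The larger angiotensin II ratios were those of sets 7 and 8, each with an array that stood apart.

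DKC1, the pseudouridine synthase of ribosomal RNA and the single ribosome biogenesis gene tested, gave -0.32 (SE 0.26) and 0.35 (SE 0.26) under losartan and angiotensin II. Its pair ratios were -0.01, -1.37, 0.37 and -0.27 in sets 1 to 4 and 0.23, -0.25, 0.74 and 0.67 in sets 5 to 8. The largest were those of sets 2, 7 and 8, each with an array that stood apart. RACK1, a scaffold protein bound to the small subunit, gave -0.08 (SE 0.13) and 0.02 (SE 0.13), and TPT1, whose messenger RNA carries the same pyrimidine tract, 0.11 (SE 0.15) and 0.14 (SE 0.15). VIM, listed with RACK1 and TPT1, gave -0.46 (SE 0.11, limma adjusted p = 0.11) under losartan and -0.01 (SE 0.11) under angiotensin II. It was lower in 4 of 4 losartan pairs, as were 11.2% of all probes. Of mTOR and insulin-like growth factor signalling genes 4 were tested (AKT1, IGF1R, IGF2 and MTOR) and 0 passed. SLIRP, an RNA-binding protein of mitochondria, and 4 genes of oxidative phosphorylation were tested and 0 passed.

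MRPL32 itself did not pass in any comparison. It read -0.02, -0.44, -0.16 and -0.28 in the untreated twins of sets 1 to 4 and -0.33, -0.28, -0.02 and -0.06 in the losartan twins, with an estimate of 0.06 (95% interval -0.39 to 0.50, limma adjusted p = 0.94). In sets 5 to 8 the untreated twins read 0.06, 0.03, 0.08 and -0.08 and the angiotensin II twins 0.04, 0.10, -1.05 and 0.08, with an estimate of -0.23 (95% interval -0.67 to 0.22, limma adjusted p = 0.63). One array, that of set 7 and one of those that stood apart, held the only low value, and without sets 2, 7 and 8 the estimate was 0.03 (SE 0.16).

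RPS23 fell into 2 ranges of level that crossed the treatment groups. It read 2.53 and 2.51 in the untreated and losartan fetuses of set 1, 2.78 and 2.55 in those of set 2, and 2.59 in the untreated fetus of set 6. These 5 fetuses lay at 2.51 to 2.78, and the other 11 at 0.74 to 1.42. In sets 1 and 2 both twins were in the upper range, in sets 3, 4, 5, 7 and 8 both were in the lower, and set 6 held one of each. The gap of 1.10 between the ranges was the largest between neighbouring fetuses among the 20 genes, that of RPL13A being next at 0.64. The signal itself was 2009 to 4423 units in the lower range and 6499 to 10258 in the upper, far above background in both. The angiotensin II twin of set 6 read 0.91, a pair ratio of -1.68, and the estimates were -0.11 (SE 0.29) under losartan and -0.27 (SE 0.29) under angiotensin II. Without sets 2, 7 and 8 the angiotensin II estimate was -0.89 (SE 0.32, limma adjusted p = 0.90), from sets 5 and 6 alone.

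**Figure D3:**
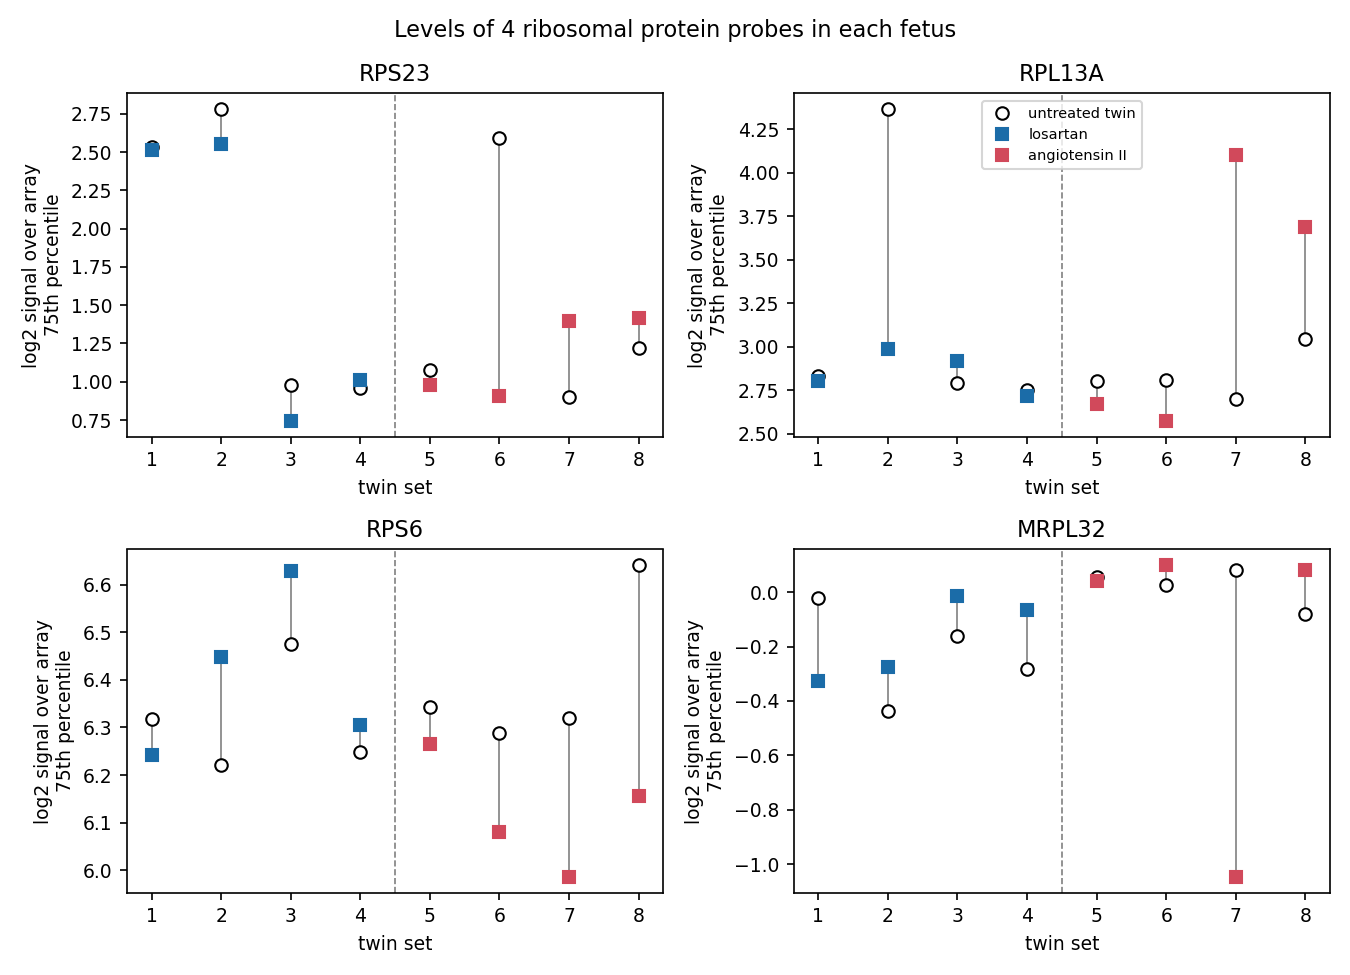
Level (log2 signal over the array's 75th percentile) of RPS23, RPL13A, RPS6 and MRPL32 in each fetus by twin set, with untreated twins as open circles, losartan as blue squares and angiotensin II as red squares, joined by pair. RPS23 has 5 fetuses at 2.51 or above and 11 at 1.42 or below, RPL13A is high on the 3 arrays that stood apart, RPS6 is lower in each angiotensin II twin, and MRPL32 is low in 1 fetus.

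The overlapping probes showed how far readings of one messenger RNA varied. The first and second RPL10 probes, shifted by 1 base, differed in their twin ratio by at most 0.16 over the 8 sets, with a median difference of 0.07. The RPS26 pair differed by at most 0.24 (median 0.11) and the RPS27A pair by at most 0.35 (median 0.09). The RPL14 pair differed by a median of 0.06 and by up to 0.41, in set 4, where its first probe gave -0.22 and its second 0.19. In their most unlike set, probes shifted by 1 base thus differed by as much as many of the twin ratios above, while their median differences were smaller.

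The third RPL10 probe, which reads 17 or 18 bases further on, differed most from the other two in sets 2 and 7, each with an array that stood apart. In set 2 the first and second probes gave -0.88 and -0.81 and the third -0.17. In set 7 they gave 1.00 and 0.97 and the third 0.50. In set 8, with such an array too, the 3 probes gave 0.45, 0.37 and 0.18. In sets 3 and 6, with neither array among the 3, they gave 0.12, -0.04 and 0.27, and -0.10, -0.15 and 0.05. The RPL4 probe and its opposite-strand counterpart differed by a median of 0.41 over the 8 sets and by up to 0.62, and went in opposite directions in sets 2, 3, 5, 7 and 8. Their median signals were 32378 and 3155 units. The RPL35A probe and the unnamed probe that shares 29 bases with it differed by a median of 0.06 and at most 0.26, and both were high in sets 7 and 8, at 0.87 and 0.84 for RPL35A and 0.92 and 0.78 for the unnamed probe.

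**Figure D4:**
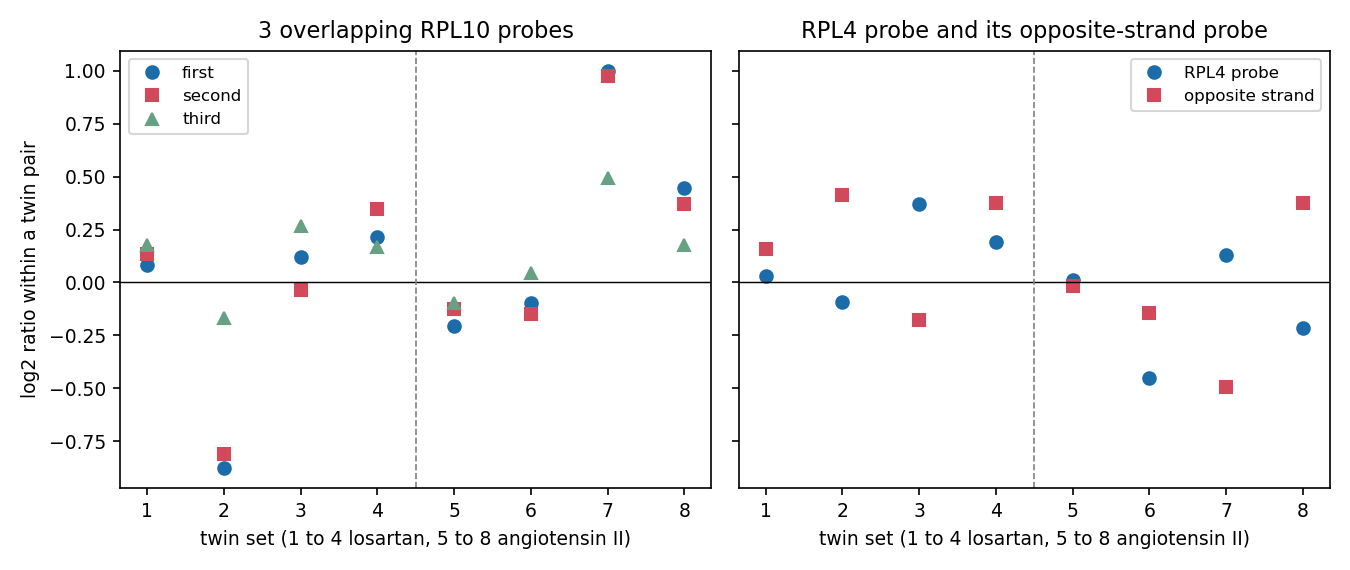
Log2 ratio of treated fetus to untreated twin (vertical axis) by twin set for the 3 overlapping RPL10 probes (left panel) and for the RPL4 probe and the probe of its opposite strand (right panel). The first and second RPL10 probes run together at -0.88 and -0.81 in set 2, where the third reads -0.17, and the 2 strands at RPL4 lie on opposite sides of 0 in 5 of the 8 sets.

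One group of ribosomal protein probes read higher on the 3 arrays that stood apart. Over the 29 cytosolic probes the mean of these arrays minus the mean of the other 13 ran from -0.26 for RPS15 to 1.25 for RPL13A, with a median of 0.27, against -0.01 over all 8966 probes. It exceeded 0.5 for 9 of the 30 member probes, among them those of RPL13A, RPS26, RPL10 and RPL35A and a dimmer RPL4 probe, where it did for 12.5% of all probes. The 8 cytosolic probes with a level of 2 to 4 on the other 13 arrays all gave 0.53 to 1.25, where the median of the 1062 probes at such levels was -0.04 and 80% of them lay between -0.47 and 0.48. The 13 cytosolic probes of level 6 or more gave -0.23 to 0.44, with a median of 0.12, against 0.10 over the 104 probes there. RPS6, RPL11, the first RPL14 probe and the brighter RPS25 probe, which were lower in all angiotensin II pairs, gave -0.23, -0.20, -0.22 and -0.11, and the other bright RPS25 probe gave 0.18. Within the second slide alone, whose angiotensin II arrays are both among the 3, 5 member probes passed an adjusted p of 0.05 in limma under losartan (6.11% of all probes), 3 under angiotensin II (3.95%) and 8 in the difference (21.2%). Probes of RPL13A, RPS26, RPL10, RPL35A and RPL4 were among them. Of the 3 arrays 2 are angiotensin II fetuses and 1 is an untreated twin of a losartan fetus. High readings on them therefore enter the angiotensin II estimates upward and the losartan estimates downward. For the 2 angiotensin II arrays, a difference between arrays and an effect of the treatment cannot be told apart. The part of these 3 arrays in each single result beyond the values without their sets was not tested.

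**Figure D5:**
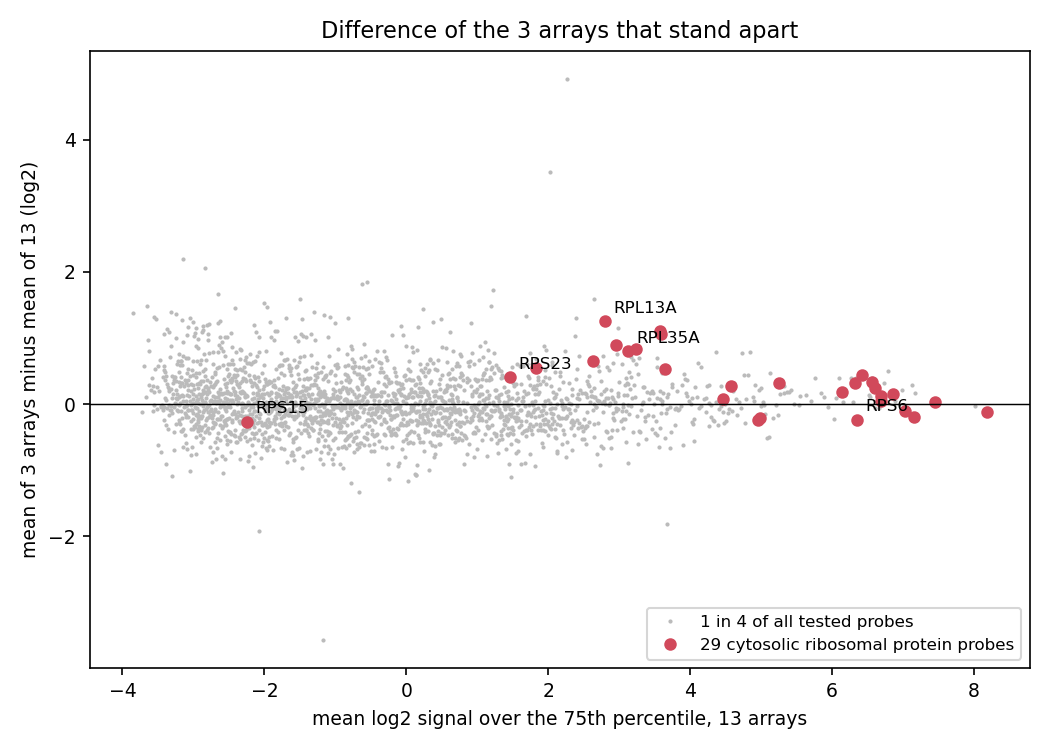
Mean of the 3 arrays that stood apart minus mean of the other 13 (vertical axis, log2) against the mean level on those 13 (horizontal axis) for the 29 cytosolic ribosomal protein probes in red and for 1 in 4 of all tested probes in grey. The red points at levels of 2 to 4 lie at 0.53 to 1.25, above most grey points there, and those at level 6 or more lie between -0.23 and 0.44.

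Some probes of other ribosomal protein genes that the rule did not take, found through the reference gene names after the values were seen, were read as well. RPS2, RPSA, RPL34 and a further RPS26 probe were tested on 5 probes, and RPL32 was not well above background on any array. Under losartan their estimates ran from -0.28 to 0.08 and under angiotensin II from -0.05 to 0.54, and 0 of 5 passed in limma. RPL34 showed the pattern of RPL13A on both of its probes, at -0.68 and -1.08 in set 2, 1.13 and 1.28 in set 7 and 0.57 and 1.10 in set 8. RPS2, a small subunit protein of the messenger RNA entry, stayed between -0.29 and 0.19 in all 8 sets.

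Some markers of other cells passed under losartan while the ribosomal protein genes did not. Of 3 neutrophil genes tested 2 rose (CATHL3 and CATHL1B), and of 3 smooth muscle genes 2 fell (CNN1 and MYL9), where 1.22% of all probes passed. The summed level of the neutrophil genes was 1.55 to 3.98 in losartan fetuses, -0.67 to 1.62 in all untreated fetuses and -0.43 to 2.50 in angiotensin II fetuses, and that of the smooth muscle genes was 3.71 to 4.31, 4.84 to 5.42 and 5.68 to 6.22. Of 3 cardiomyocyte genes, 6 fibroblast genes, 2 endothelial genes, 3 leukocyte genes and 2 erythroid genes tested, 0 passed under losartan. Against that share of all probes, these lists are too short for a count of 0 to show that a cell type did not move. Whether a change in the mixture of cells touched the ribosomal protein levels was not tested.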

How the data were processed

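Left ventricle RNA of 16 fetal sheep, 4 per group, was read on 1-colour Agilent arrays. Per the file headers, the authors extracted each spot's red intensity with Agilent Feature Extraction 10.7.3.1, and the processed signal is already background-subtracted. A deposited value table holds natural log values, whose normalization the sources used here do not state. The processed intensity was put on the log2 scale and each array's 75th percentile was subtracted. Replicate spots of a probe were averaged. Tests were limited to the 8966 of 15008 probes that exceeded background clearly, by the flag of the deposited arrays, on each array of at least 1 group. Both treatments were fitted in 1 limma 3.58.1 model (R 4.3.3) with the twin set as a block, which left 6 residual degrees of freedom, and p was adjusted by Benjamini-Hochberg over all 8966 probes. The 8 untreated arrays were fitted alone for the comparison of control groups. The block comes from the labels, which name the twin set, and twins' deviations from their group means correlated between -0.04 and 0.53. The p-values of the treatments and of their difference measure the spread between twin pairs, and those of the control groups the spread between untreated fetuses. A gene is given by its tested probe with the highest mean. Genes were named where they passed, had 1 of the 5 smallest p in a direction, or had 1 of the 3 largest or smallest SD in untreated fetuses, plus MRPL32, CCNB1, CDK1, PCNA and MYC. From each other gene list up to 4 genes with the smallest p were named. The members, lists and rules were chosen with earlier results of these data known. Values of a few genes are not reported here. The fit was tested on simulated data. The number of arrays limits the precision. Alternatives were background correction, scaling, filter, value table, block, slide, array row, array weights, probe choice and left-out twin sets.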

Additional observations from a re-analysis of the deposited data

Results flagged for a closer look

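Within each group of 4 fetuses, the highest or lowest value was compared with the other 3 by Dixon's ratio for 18 of the genes. Of the 72 groups so examined 5 held such a value, where chance gives about 3.6. MRPL32 read -1.05 in the angiotensin II fetus of set 7, against 0.04 to 0.10 in the other 3. RPL13A read 4.36 in the untreated fetus of set 2, against 2.75 to 2.83. Both values came from arrays that stood apart. RPS12 read 6.75 in the losartan fetus of set 1, against 6.96 to 6.99. In the untreated fetus of set 8, RPS27A read 6.86, against 6.53 to 6.56, and RPS6 read 6.64, against 6.29 to 6.34.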

How the results depend on the processing

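The count of 0 ribosomal protein probes past the threshold held in each comparison under every alternative run except within slide 2 alone and in the authors' value table. Within slide 2, where the angiotensin II arrays are both arrays that stood apart and the only untreated twin of a losartan set is the remaining such array, 5 member probes passed under losartan (6.11% of all probes), 3 under angiotensin II (3.95%) and 8 in the difference (21.2%), and the median over cytosolic genes was -0.13 under losartan and 0.29 in the difference. In the value table that the authors deposited, 4 member probes passed in the difference, and the cause was not tested. Without the replicate block of the twin pairs, 0 member probes passed and the medians were 0.02, 0.03 and 0.00 under losartan, angiotensin II and in the difference. Leaving out each twin set in turn gave 0 member probes in each comparison and medians of -0.08 to 0.09 under losartan, -0.04 to 0.14 under angiotensin II, -0.03 to 0.08 in the difference and -0.05 to 0.13 between control groups. Leaving out sets 2, 7 and 8 together gave 0 member probes and medians of 0.03 under losartan, -0.13 under angiotensin II and -0.19 in the difference. With 4 pairs per treatment, the 95% interval of a cytosolic gene reached a median of 0.27 to either side of its estimate, before any adjustment for the number of probes tested.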
